A study of Mus musculus with 10 samples.

Results

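The response described here is that of parental B16-F10 cells, a mouse melanoma cell line, to interferon gamma (IFN-γ), read by bulk sequencing of poly-A selected RNA. The libraries were taken by their labels alone, with no measured value used. They are 5 of the 10 libraries of the series. Of these, 2 came from untreated B16-F10 cells and 3 from B16-F10 cells given IFN-γ at 50 ng/ml for 24 h. The other 5 came from B16-F10-OVA, the same line with an ovalbumin gene under an EF1A promoter and a neomycin marker (2 untreated, 3 given the same IFN-γ). They share the model and serve here for the spread between replicates and, for a few genes, for the difference between the 2 lines. The labels do not say whether either line is a single clone, or whether replicates are separate cultures. The p-values therefore measure the spread between these libraries, which may be technical.

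IFN-γ is the cytokine by which T cells and natural killer cells act on tumour cells. It binds the receptor chains IFNGR1 and IFNGR2, whose JAK kinases start the signal. It reaches genes through short palindromes called gamma-activated sites (GAS) and switches on IRF1, a factor that in turn binds interferon-stimulated response elements (ISRE) in a second set of genes. Melanoma cells respond with more antigen presentation, guanylate-binding and immunity-related GTPases, chemokines and checkpoint ligands, and grow more slowly. Those families are the usual account of the pathway. The rest of the transcriptome is the subject here.

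The parental libraries held 17728722 to 19642533 counted reads, and 14365 to 14674 genes had at least 10 reads in a library. Depth was higher in the treated libraries (18802348 to 19642533) than in the untreated ones (17969257 and 17728722), and p was 0.2 in an exact two-sided permutation test, the smallest that 2 against 3 libraries allow. All 8 markers of the melanoma lineage were detected, with a summed level of 23983 to 24172 CPM (counts scaled to a common library size) in the untreated and 24831 to 25251 CPM in the treated libraries. Markers of T cells summed to at most 0.217 CPM, with Ptprc, Cd3e and Cd3g at 0 reads, endothelial markers to at most 0.515 CPM and epithelial markers to at most 1.33 CPM. The fibroblast list summed to 4.31 to 4.43 CPM untreated and 2.44 to 3.40 CPM treated. The macrophage list, with Itgam at 0 reads, summed to 2.37 to 3.25 CPM untreated and 3.46 to 5.04 CPM treated, and the part of such traces in the results was not tested.

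After 24 h of IFN-γ the expression of 6858 of the 15526 tested genes had changed, 44.2% of them, at an adjusted p under 0.05 in edgeR's quasi-likelihood test. There were 3803 genes higher (24.5% of those tested) and 3055 lower (19.7%). The libraries of the 2 groups did not overlap for 6808 of the 6858. Over all tested genes they did not overlap for 9622 (62%). Most changes were small. At least 2-fold changes numbered 765 upward (4.93%) and 344 downward (2.22%), and the median log2 change over all tested genes was 0.01. At least 16-fold changes numbered 236 upward and 8 downward. Of the at least 2-fold changes, 411 upward and 79 downward were in genes under 1 CPM in untreated cells. The count filter shapes the balance of such low genes, so neither of these balances is read as a result.

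The counts in each direction were read by the untreated level. Among 2603 genes under 1 CPM in untreated cells, 425 rose and 79 fell. Many genes this low pass the count filter only through libraries where they are high, so that balance is shaped by the filter and is not read as a result. Among 3791 genes at 1 to under 10 CPM, 616 rose and 543 fell, and among 6923 at 10 to under 100 CPM, 2163 rose and 1564 fell. Among 2209 genes at 100 CPM or more, 599 rose and 869 fell, so that 27.1% of these abundant genes rose and 39.3% fell. Increases of at least 2-fold were rare among abundant genes, with 8 of 2209, against 37 decreases of that size. Of these 37, 25 have a Gm, Rik or no symbol, and 12 share sequence so that their reads cannot be assigned with certainty. The median log2 change of the genes that rose was 3.26 in the lowest class and 0.20 in the highest. Low genes need a larger change to pass the test, which bears on the medians of the lower classes. By GENCODE M21 gene type, 28.6% of 12093 protein-coding genes rose and 22.3% fell. Of 525 entries of the unconfirmed type TEC, 4.76% rose and 11.8% fell.

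**Figure D1:**
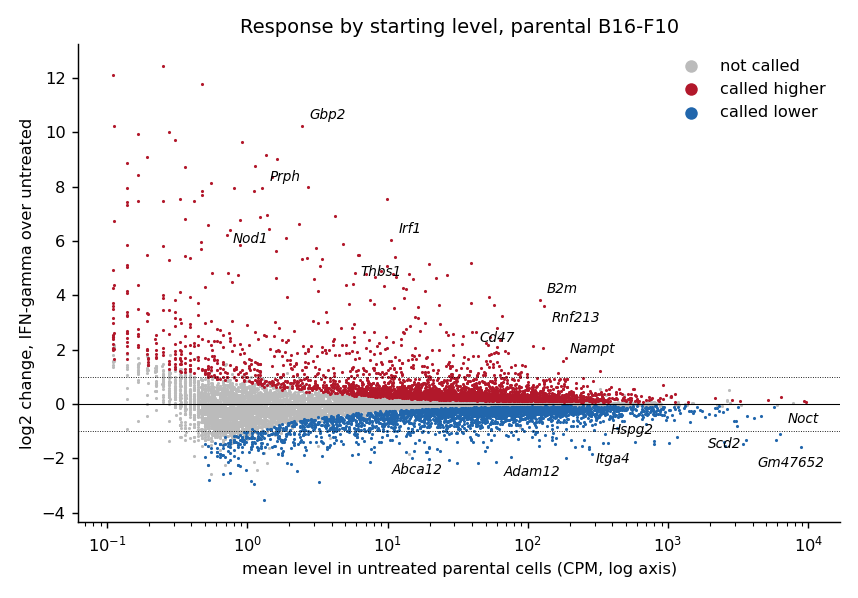
Log2 change with IFN-γ (vertical axis) against the mean level in untreated parental cells in CPM (horizontal log axis) for 15302 tested genes with over 3 reads in each group, each point a gene; dotted lines mark 2-fold. Red points are the 3634 called higher and blue points the 3046 called lower; large increases sit at the left, and the abundant genes at the right, such as Gm47652 at 8842 CPM, moved less or fell.

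A known early gene of the pathway gives the scale. Irf1, the factor that relays the signal to ISRE genes, stood at 11.04 and 10.3 CPM in the untreated and 684, 693 and 727 CPM in the treated libraries. All 3 treated libraries were far above both untreated ones, and the log2 change was 6.04 ± 0.055 (SE). The melanocyte genes that serve as the other fixed points changed in both directions. Mitf, the master factor of the lineage, went from 573 ± 12.9 CPM (SD, n = 2) to 834 ± 21.1 CPM (SD, n = 3). The log2 change was 0.54 ± 0.029 (SE), against a median of 0.20 among the genes of at least 100 CPM that rose. Its target Pmel, the fibril protein of melanosomes, rose by 0.14 ± 0.022 (SE). Its target Tyr, the first enzyme of melanin synthesis, went the other way, from 871 ± 2.81 to 673 ± 19.3 CPM (adjusted p = 1.57e-08).

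Of the 765 genes that rose at least 2-fold, 182 have symbols of the usual interferon families and 583 do not. The split is by symbol alone, and 393 of the 583 have a symbol other than a Gm, Rik, BC or AU name. The rest include predicted genes inside clusters of the usual families, such as Gm12185 among the GTPases. Prph, which encodes the neuronal intermediate filament peripherin, had the highest treated level among the largest increases with a plain symbol outside the usual families. Its level was 1.10 and 1.46 CPM in the untreated and 309, 313 and 321 CPM in the treated libraries. The increase is 246-fold on the means (log2 change 7.93 ± 0.079 SE, adjusted p = 2.39e-21), and the libraries of the groups lie far apart. Batf2, a basic leucine zipper factor of the AP-1 family, rose from 0.331 and 0.0560 CPM to 109.6, 108 and 107 CPM (adjusted p = 6.28e-19). Tmem140, a membrane protein of unclear function, rose from 3.31 and 3.53 CPM to 136, 141 and 142 CPM (adjusted p = 3.94e-20). In these genes, as in Prph, every treated library was above both untreated ones.

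Sensors and signalling receptors were among the largest increases. Nod1, a cytosolic sensor of bacterial cell-wall fragments, went from 1.66 and 1.57 CPM to 82.0, 81.3 and 79.6 CPM (log2 change 5.64 ± 0.084 SE). Il12rb1, the shared receptor chain for interleukins 12 and 23, went from 0.718 and 0.728 CPM to 57.2, 51.6 and 55.9 CPM. Ddx60, a helicase of the antiviral RNA sensing pathway, went from 0.110 and 0.168 CPM to 35.2, 36.4 and 37.5 CPM. The groups did not overlap for any of them, and the adjusted p values were 6.85e-19, 2.53e-17 and 2.22e-16. Ccrl2, an atypical chemoattractant receptor, and Flt3l, the growth factor for dendritic cell precursors, reached 8.30 ± 0.188 and 5.90 ± 0.299 CPM (SD, n = 3) from under 1 CPM. Cdh6, a cadherin, reached 5.02 ± 0.283 CPM from 0.139 CPM. Pacsin1, a membrane-bending protein of neurons, reached 23.1 ± 0.945 CPM from 0.863 CPM. Thbs1 encodes thrombospondin 1, a secreted ligand of CD47, and stood at 5.02 and 6.39 CPM in the untreated and 125.97, 124 and 118 CPM in the treated libraries. Cd47, the surface signal that restrains phagocytosis, rose as well, from 59.1 and 56.2 CPM to 211, 212 and 208 CPM (adjusted p = 1.07e-16).

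Among abundant genes outside the usual families, Rnf213, a giant ubiquitin ligase, gained the most reads. Its levels were 127 and 134 CPM in the untreated and 1690.2, 1629.7 and 1506 CPM in the treated libraries, a log2 change of 3.62 ± 0.070 (SE). All 3 treated libraries were more than 10 times above both untreated ones. Helz2, a helicase that acts as a nuclear receptor coactivator, rose from 16.6 ± 0.0269 CPM (SD, n = 2) to 197 ± 4.51 CPM (SD, n = 3). Trafd1, a negative regulator of innate signalling, rose from 11.2 ± 0.554 to 128 ± 5.40 CPM. Nmi, an interferon-inducible adaptor protein, rose from 7.98 ± 0.829 to 102 ± 5.25 CPM. The adjusted p values ran from 3.41e-19 for Helz2 to 2.60e-17 for Nmi, and no library overlapped the other group. Vwa5a reached 143 ± 4.56 CPM from 15.7 ± 0.783, and Rnf19b, a ubiquitin ligase of the RBR type, reached 105 ± 2.60 CPM from 14.4 ± 0.521.

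**Figure D2:**
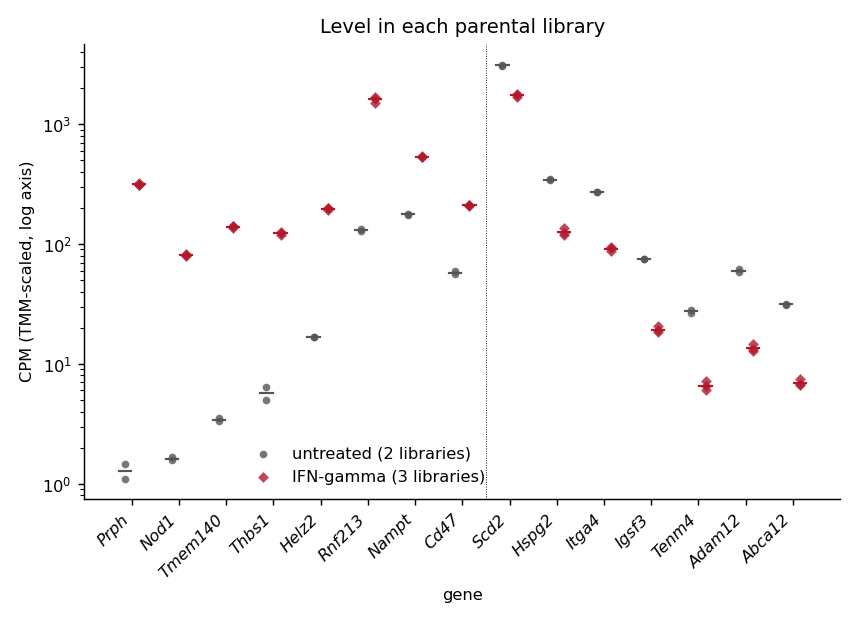
Level in CPM (vertical log axis) of 15 named genes in each parental library; grey circles are the 2 untreated and red diamonds the 3 treated libraries, with a short line at each group mean. To the left of the dotted line the genes rose and to the right they fell; the 2 groups are apart in each gene, from Prph (1.28 to 315 CPM) to Abca12 (31.4 to 6.97 CPM).

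Many induced genes were silent at first. At most 3 reads were counted over both untreated libraries for 212 tested genes, and 169 of these rose. Such genes can hardly pass the count filter except through the treated libraries, so their share says nothing of itself. Outside the usual families, the highest was Gm12185, a predicted gene inside the GTPase cluster on chromosome 11, with 2 untreated reads. Its treated level was 559, 553 and 554 CPM, a ratio of 9984 with a counting interval from 2764 to 82441 (95%, exact, counting error only). Mndal, a nuclear protein of the PYHIN family, had no untreated reads and 50.5 ± 1.58 CPM with IFN-γ, at least 606-fold higher against a floor of 3 reads over the untreated group. Sp110, a nuclear body protein, had none either and reached 42.6 ± 1.98 CPM, at least 510.4-fold higher. Clec2d, the ligand of an inhibitory natural killer cell receptor, went from 1 read to 20.3 ± 1.84 CPM. The entry 9330175E14Rik, at 22.3 ± 1.31 CPM from 0 reads, lies next to Nlrc5, the coactivator of class I genes, in RefSeq's gene order. Or2v1, named for an olfactory receptor, reached 87.3 ± 3.87 CPM. Its GENCODE M21 gene model overlaps that of the GTPase gene Ifi47, so its reads cannot be assigned with certainty. Mpeg1, a pore-forming protein best known from macrophages, was chosen after its values were seen and stood at 8.56 ± 0.751 CPM treated against 0 CPM untreated.

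Some induced genes lay side by side. In the RefSeq gene order of GRCm38.p6, used for order only, 639 of the genes at least 2-fold higher could be placed, and 222 of them (34.7%) had an adjacent tested gene that was also at least 2-fold higher. Over all 12826 placed genes, 9.19% had such a neighbour. For the 461 placed genes outside the usual families by symbol the share was 21.9%. It is set against the same 9.19%, in which a neighbour of any family counts. Predicted genes inside the clusters of the usual families, such as Gm12185, are among the 461. For genes at least 2-fold lower it was 5.38%, against 3.46% over all placed genes. Runs of 3 or more such neighbours numbered 27 upward, with 128 genes, and 0 downward. Only tested genes count as neighbours, and a gene silent in untreated cells can hardly be tested except through libraries where it is high. The shares and the numbers of runs are thus shaped by the filter and are not read as a result. A run of 11 on chromosome 1 went from Slamf8 through the PYHIN genes to Ifi205, and another 11 on chromosome 11 went from Irgm1 to Gm12188. A run of 7 on chromosome 1 held Sp110, Sp140 and Sp100 beside 4 predicted genes and none of the usual families. Sp100, the founding protein of PML nuclear bodies, rose from 0.442 and 0.224 CPM to 64.6, 63.6 and 63.3 CPM, and Sp140, its lymphoid relative, from 0.221 and 0.0560 CPM to 24.5, 24.97 and 25.9 CPM. On chromosome 2 the run was Rnd3, 1700057H21Rik, Rbm43 and Nmi. Many runs are families of near-copies, such as Tgtp1 and Tgtp2, whose reads may be split between copies.

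To show the sites that the pathway's factors are known to read, promoter windows of 250 bases before to 50 bases after the start were taken from RefSeq (GRCm38.p6), and the 250 bases before the start are printed for 6 of them. Irf1 and Nod1 carry a GAS (TTC, any 3 bases, GAA), shown in capitals. Gbp2, Ddx60, Tmem140 and Snx10 carry an ISRE core (GAAA, any 2 bases, GAAA, on either strand), shown in capitals. Gbp2, a guanylate-binding GTPase, is the familiar member of the 6, and Snx10 is a sorting nexin of endosomes, whose change in level is not given here. All 6 are examples that hold a match, which most windows lack.
Irf1, chr11:53769764-53770013, plus strand: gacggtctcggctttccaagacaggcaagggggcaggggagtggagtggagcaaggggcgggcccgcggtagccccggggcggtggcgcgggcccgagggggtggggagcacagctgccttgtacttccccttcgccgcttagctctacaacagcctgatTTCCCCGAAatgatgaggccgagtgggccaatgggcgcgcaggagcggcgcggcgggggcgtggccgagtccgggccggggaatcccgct
Nod1, chr6:54971662-54971911, minus strand: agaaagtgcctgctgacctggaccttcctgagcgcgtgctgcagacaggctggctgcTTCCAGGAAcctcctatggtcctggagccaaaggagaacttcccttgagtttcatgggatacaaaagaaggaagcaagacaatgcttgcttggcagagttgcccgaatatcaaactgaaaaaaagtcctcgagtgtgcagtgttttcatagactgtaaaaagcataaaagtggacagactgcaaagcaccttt
Gbp2, chr3:142620413-142620662, plus strand: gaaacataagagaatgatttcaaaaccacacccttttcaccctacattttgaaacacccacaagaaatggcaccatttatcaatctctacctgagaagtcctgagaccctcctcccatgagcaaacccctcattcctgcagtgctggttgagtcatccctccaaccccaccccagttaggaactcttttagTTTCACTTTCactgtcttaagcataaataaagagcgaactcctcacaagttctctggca
Ddx60, chr8:61927837-61928086, plus strand: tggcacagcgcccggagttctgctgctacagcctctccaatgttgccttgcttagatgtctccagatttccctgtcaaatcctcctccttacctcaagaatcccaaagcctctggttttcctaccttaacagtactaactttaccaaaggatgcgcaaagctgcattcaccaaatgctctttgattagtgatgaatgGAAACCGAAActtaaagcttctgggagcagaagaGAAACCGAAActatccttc
Tmem140, chr6:34862896-34863145, plus strand: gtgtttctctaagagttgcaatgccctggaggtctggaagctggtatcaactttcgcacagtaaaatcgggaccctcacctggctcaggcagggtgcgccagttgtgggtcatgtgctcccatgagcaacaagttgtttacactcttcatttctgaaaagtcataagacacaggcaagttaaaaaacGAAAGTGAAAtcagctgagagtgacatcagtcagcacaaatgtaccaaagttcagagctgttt
Snx10, chr6:51524010-51524259, plus strand: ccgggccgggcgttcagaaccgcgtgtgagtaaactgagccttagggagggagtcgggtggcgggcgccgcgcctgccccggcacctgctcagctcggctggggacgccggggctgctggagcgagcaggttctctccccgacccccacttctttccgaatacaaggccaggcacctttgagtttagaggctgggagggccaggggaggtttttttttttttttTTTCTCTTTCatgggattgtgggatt
Ddx60 has 2 ISRE cores with the same letters, and each of the other 5 windows has 1 match of the motif shown. For Nod1 and Snx10 the window is 1 of several that RefSeq gives.

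Windows were found for 10173 of 14617 tested genes with a symbol, 13046 windows in all. The ISRE core was in 3.20% of all windows and in 16.9% of the windows of genes at least 2-fold higher. Of the latter, the share was 22.8% for genes under 1 CPM untreated and 12.7% for those at 1 CPM or more. Many of the former pass the count filter only through libraries where they are high. Within the usual interferon families the share was 42.0%, and among the other genes at least 2-fold higher it was 8.47%. Genes that rose by under 2-fold had it in 3.59% of windows, genes that were not called in 2.23% and genes at least 2-fold lower in 0.966%. The GAS was in 6.81% of all windows, 12.1% of those of genes at least 2-fold higher and 4.35% of those of genes at least 2-fold lower. Its share among genes at least 2-fold higher outside the usual families was 10.1%. The κB motif (GGGA, any 4 bases, CC) was in 25.5% of windows of genes at least 2-fold higher against 26.3% of all windows. These shares are descriptions of letters in a window, with no test.

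**Figure D3:**
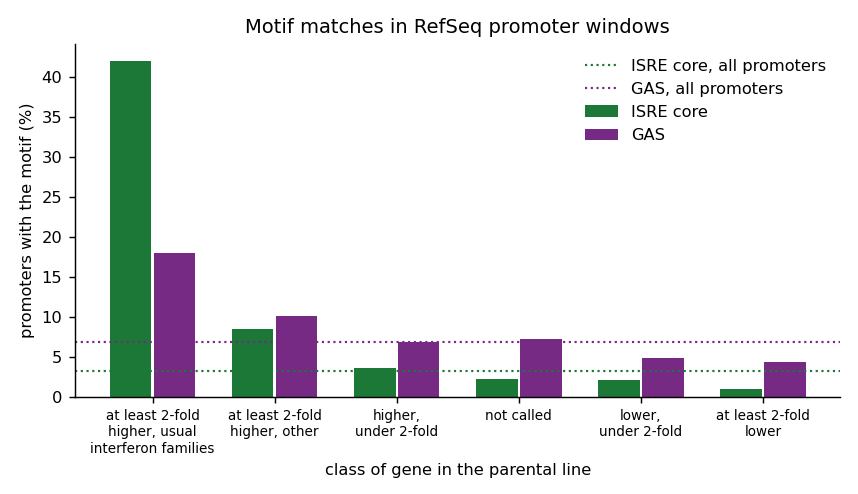
Percent of RefSeq promoter windows of 300 bases that hold an ISRE core (green) or a GAS (purple), by class of gene in the parental line; dotted lines are the shares over all windows (3.20% and 6.81%). The ISRE share falls from 42.0% in the usual families to 0.966% in genes at least 2-fold lower.

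Nuclear sensors and nuclear body proteins were among the induced genes. All 10 tested PYHIN genes, sensors of DNA in the nucleus and cytosol, were higher, and 4 of the 14 in the table did not pass the count filter. Of the 10, 7 had no untreated reads and could pass the filter only through other libraries, so neither the count nor the list's median is read as a result. Ifi211 is an example, with 91.7, 93.3 and 95.4 CPM against no reads, at least 1121-fold higher. Of 21 tested PML and SP100 body genes, 10 rose (47.6%) and 2 fell (9.52%), against 24.5% and 19.7% of all tested genes. Members under 1 CPM untreated can pass the filter through libraries where they are high, so the share that rose is not read as a result. Daxx, a histone H3.3 chaperone of PML bodies, rose from 29.3 ± 1.52 CPM (SD, n = 2) to 131 ± 7.19 CPM (SD, n = 3). Among the Schlafen genes, regulators of tRNA and replication, Slfn9 rose from 53.3 ± 0.00514 to 183 ± 4.18 CPM.

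Genes of the ubiquitin system had large and small increases. Of 36 tested E1 and E2 enzymes, 14 rose (38.9%) and 2 fell (5.56%), against 24.5% and 19.7% of all tested genes. Without treated library 3, 4 fell. Uba7 and Ube2l6, the E1 and E2 enzymes for the ubiquitin-like modifier ISG15, were the largest. Uba7 stood at 2.98 and 2.35 CPM in the untreated and 112, 110.1 and 113 CPM in the treated libraries. Ube2l6 stood at 6.18 and 6.05 CPM in the untreated and 274, 278 and 274 CPM in the treated libraries. Both groups are far apart, and the other called E1 and E2 genes changed much less, such as Ube2a (log2 change 0.41 ± 0.064 SE). Of 45 Usp deubiquitinases, 21 rose (46.7%) and 5 fell (11.1%). The number that fell was 2 without untreated library 1, 8 and 9 without OVA treated libraries 1 and 3, and 10 without TMM factors. The increases were led by the ISG15 protease Usp18, from 0.751 to 63.9 CPM, and Usp25, from 54.0 to 159.6 CPM. Of 61 RNF genes, 21 rose (34.4%) and 12 fell (19.7%, the same as the share of all tested genes). Among those that rose was Rnf31, the catalytic subunit of the linear ubiquitin ligase, from 15.8 ± 0.869 to 66.4 ± 1.43 CPM. Of 12 tested serpins, protease inhibitors, 7 rose (58.3%) and 1 fell (8.33%). Under the stricter filter of 1 CPM in 5 libraries 4 rose. Serpinb9, the inhibitor of granzyme B, rose from 3.64 and 3.59 CPM to 38.1, 38.5 and 36.8 CPM. Serpinh1, the collagen chaperone, was the 1 that fell, with a log2 change of -0.33 ± 0.027 (SE).

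Cytokines and their receptors had more increases than decreases called, as did all tested genes (24.5% rose and 19.7% fell). Members under 1 CPM untreated can pass the filter through libraries where they are high. The shares that rose in these lists are thus not read as a result. Of 22 interleukin and receptor genes, 10 rose (45.5%) and 3 fell (13.6%). Il18bp, the secreted decoy for interleukin 18, went from 3.31 and 3.08 CPM to 56.9, 58.9 and 56.6 CPM. Of 14 TNF family genes, 5 rose (35.7%) and 2 fell (14.3%). Without untreated library 2, 0 of them fell, and 1 fell without untreated library 1 or treated library 3. Tnfrsf14, a ligand for the lymphocyte receptor BTLA, reached 9.07 ± 0.941 CPM from 0.194 CPM. Tnfsf10, which encodes the death ligand TRAIL, reached 14.2 ± 0.320 CPM from 3 untreated reads in all, a ratio of 169.9 with a 95% counting interval from 57.9 to 826.

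Small increases were common in the machinery of protein synthesis and transport. Of 60 tested ribosome biogenesis genes, 28 rose (46.7%) and 2 fell (3.33%), against 24.5% and 19.7% of all tested genes. Their median log2 change was 0.09, against 0.01 over all tested genes. Noc4l, a factor of small subunit assembly, made the largest change, from 28.8 ± 0.215 CPM (SD, n = 2) to 61.5 ± 3.90 CPM (SD, n = 3). Wdr43 (log2 change 0.43 ± 0.038 SE) is closer to the usual size. Of 78 mitochondrial ribosomal proteins, 37 rose (47.4%) and 8 fell (10.3%), with a median of 0.16. Of 51 translation factors, 22 rose (43.1%) and 10 fell (19.6%, close to the share of all tested genes). Eif4e3, a cap-binding protein, rose by 1.06 ± 0.051 (SE) on the log2 scale. Eif4ebp2, the repressor of the main cap-binding protein, fell from 437 and 421 CPM to 235, 237 and 227 CPM. Of 56 trafficking genes of the Rab, Arf and SNARE families, 31 rose (55.4%) and 4 fell (7.14%), with a median of 0.12. Rab5c, a small GTPase of early endosomes, rose from 153 ± 1.85 to 287 ± 5.61 CPM. Of 358 Zfp genes, most of them zinc finger factors, 118 rose (33.0%) and 34 fell (9.50%), with a median of 0.15. Counts of such small changes depend on the spread. Without untreated library 2, 12 translation factors rose, and without treated library 3, 24 mitochondrial ribosomal genes rose. Without untreated library 1 the members that fell were 6 translation factors, 4 mitochondrial ribosomal genes (5 without treated library 1) and 2 trafficking genes, and DESeq2's Wald test called 72 Zfp genes higher.

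Lysosome and autophagy genes had more increases than decreases called, as did all tested genes (24.5% rose and 19.7% fell). Of 42 lysosomal hydrolases, 18 rose (42.9%) and 10 fell (23.8%), so that both shares were above those of all tested genes. Among protein-coding genes alone 28.6% rose and 22.3% fell, so the share that fell is close to theirs. Of 31 lysosomal membrane proteins and proton pump subunits, 13 rose (41.9%) and 5 fell (16.1%). Of 39 autophagy genes, 16 rose (41.0%) and 6 fell (15.4%). Without untreated library 2 or treated library 2, 3 of the membrane proteins fell. Ctso, a cysteine cathepsin, rose from 2.32 and 1.96 CPM to 14.8, 12.5 and 14.1 CPM. Gla, which removes terminal galactose from glycolipids, rose from 12.5 ± 0.0689 CPM (SD, n = 2) to 28.1 ± 0.787 CPM (SD, n = 3). Laptm4a, a lysosomal membrane protein, and Atp6v0a2, a subunit of the proton pump, rose by 0.83 ± 0.033 and 0.81 ± 0.032 (SE) on the log2 scale.

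**Figure D4:**
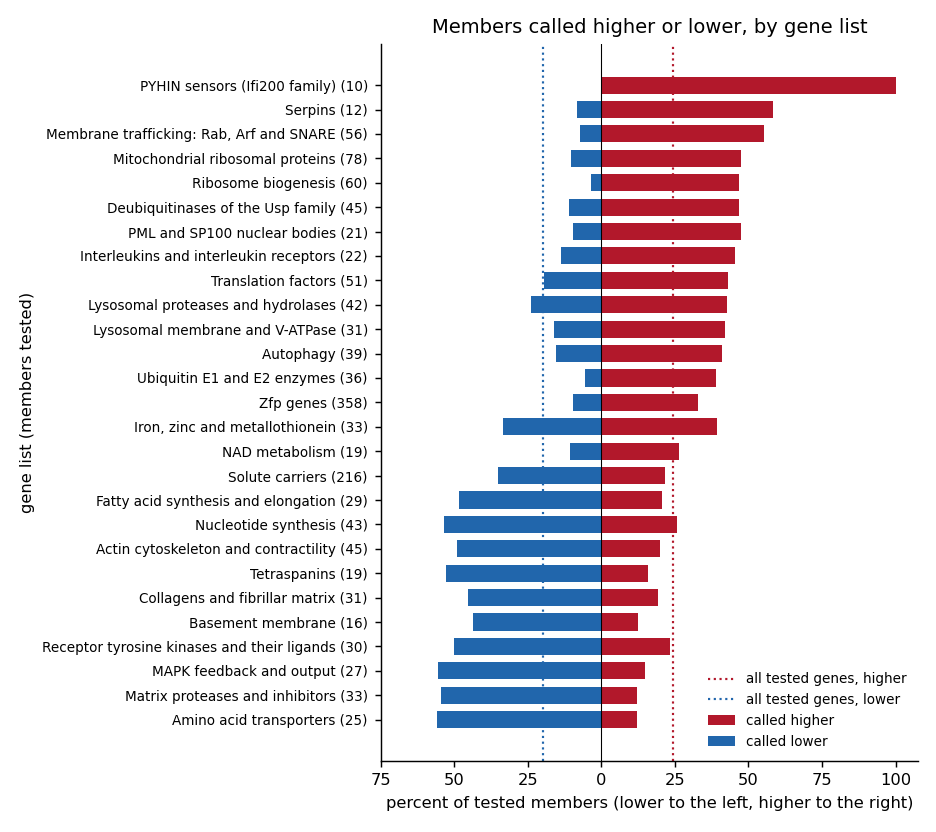
Percent of tested members called higher (red, to the right) and lower (blue, to the left) in 27 of the 63 gene lists, with the number tested in brackets; dotted lines are the shares over all tested genes, 24.5% higher and 19.7% lower. Trafficking and ribosome lists extend to the right of the dotted line, and matrix, protease, kinase feedback and amino acid transporter lists extend to the left.

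Among metabolic genes, 2 abundant ones stood out upward. Nampt, the rate-limiting enzyme of NAD salvage, had 178 and 176 CPM in the untreated and 528, 532 and 545 CPM in the treated libraries. Wars1, the tryptophanyl-tRNA synthetase, had 186 and 189 CPM in the untreated and 616, 614 and 588 CPM in the treated libraries. The treated libraries were about 3 times the untreated in both, with adjusted p values of 1.94e-17 and 2.44e-17. The other members of their lists did less. Of 19 tested NAD genes, 5 rose (26.3%, close to the 24.5% of all tested genes) and 2 fell, and the fall of Sirt5 is uncertain because its transcript shares sequence with other genes. Of 5 tested genes of tryptophan and kynurenine metabolism, 1 rose (20%) and 2 fell (40%, against 19.7% of all tested genes). Afmid, an enzyme of kynurenine formation, and Kyat3, an aminotransferase, were the ones that fell. The call of Kyat3 (adjusted p = 0.0431) was lost in 8 of the alternative settings. Without untreated library 1 no member of this list was called lower, and without untreated library 2 the NAD genes that rose numbered 3.

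Genes of lipid synthesis changed in both directions. Of 29 tested genes of fatty acid synthesis and elongation, 14 fell (48.3%) and 6 rose (20.7%), against 19.7% and 24.5% of all tested genes. Their median log2 change was -0.17. Scd2, a stearoyl-CoA desaturase and one of the most abundant transcripts, stood at 3126 and 3053 CPM in the untreated and 1794, 1746 and 1685 CPM in the treated libraries. Elovl6, which elongates palmitate, stood at 117 and 114 CPM in the untreated and 57.0, 58.5 and 56.0 CPM in the treated libraries. The groups were apart in both. In the other direction, Acacb, the mitochondrial acetyl-CoA carboxylase, rose from 12.1 ± 0.427 to 37.3 ± 1.45 CPM. Acsl5, an acyl-CoA synthetase, rose from 88.7 ± 3.22 to 193 ± 5.16 CPM. Of 29 lipid and sterol transporters, 7 rose (24.1%, close to the share of all tested genes) and 10 fell (34.5%). Abca12, a keratinocyte lipid transporter, was the largest decrease among named genes, at 31.03 and 31.7 CPM in the untreated and 7.47, 6.64 and 6.81 CPM in the treated libraries. Pltp, a phospholipid transfer protein, rose from 19.1 to 62.9 CPM.

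Nutrient uptake and nucleotide synthesis leaned downward. Of 25 tested amino acid transporters, 14 fell (56%) and 3 rose (12%), against 19.7% and 24.5% of all tested genes. Of 216 solute carriers, 76 fell (35.2%) and 47 rose (21.8%), with 30 rising by DESeq2 and 31 without untreated library 1. Slc38a6 is 1 of those 14, but its reads cannot be assigned with certainty, because its transcript shares sequence with other genes. Slc6a15 (log2 change -0.69 ± 0.077 SE) and Slc43a1 (-0.67 ± 0.13), both carriers of neutral amino acids, fell too. Slc2a6, a glucose transporter family member, rose from 9.57 to 39.2 CPM. Of 43 nucleotide synthesis genes, 23 fell (53.5%) and 11 rose (25.6%, close to the share of all tested genes). Shmt1, the cytosolic serine hydroxymethyltransferase, fell from 39.2 ± 2.23 to 23.6 ± 1.01 CPM. Samhd1, the phosphohydrolase that removes deoxynucleotides, rose from 43.1 and 43.0 CPM to 269, 269 and 264 CPM. Pnp, which breaks down purine nucleosides, rose from 7.48 ± 0.194 to 29.0 ± 1.12 CPM. Both enzymes of breakdown are counted among the 11. That count was 6 without untreated library 2 and 7 without treated library 3. In 11 alternative settings 1 amino acid transporter rose in place of 3, among them those that left out untreated library 1 or 2, treated library 1 or 3, OVA untreated library 1 or OVA treated library 2.

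Iron and redox genes changed in both directions. Of 33 tested genes of iron, zinc and metallothionein, 13 rose (39.4%) and 11 fell (33.3%), against 24.5% and 19.7% of all tested genes. Without TMM factors 10 rose and 11 fell. Cp, the ferroxidase ceruloplasmin, rose from 15.0 and 15.6 CPM to 52.8, 49.9 and 53.1 CPM. Mt2, a metallothionein, rose from 61.9 ± 0.507 to 163 ± 9.15 CPM. The ferritin light chain Ftl1 fell from 4178 and 3999 CPM to 2901, 2861 and 2904 CPM. Of 49 redox genes, 11 rose (22.4%, against 24.5% of all tested genes) and 14 fell (28.6%, against 19.7%). Without TMM factors 20 fell. Gpx1, a glutathione peroxidase, rose from 61.7 ± 2.87 to 225 ± 6.98 CPM, and Gstm1, a glutathione transferase, fell from 31.8 ± 0.698 to 17.6 ± 0.571 CPM.

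Genes of the matrix and its proteases had more decreases than increases called. Of 31 tested collagen and fibrillar matrix genes, 14 fell (45.2%) and 6 rose (19.4%), against 19.7% and 24.5% of all tested genes. Their median log2 change was -0.35. Of 33 matrix proteases and inhibitors, 18 fell (54.5%) and 4 rose (12.1%), with a median of -0.44. Adam12, a membrane metalloprotease that sheds growth factors, stood at 58.0 and 61.4 CPM in the untreated and 13.4, 14.6 and 12.8 CPM in the treated libraries. Adam19, its close relative, stood at 18.6 and 19.6 CPM in the untreated and 5.90, 6.07 and 4.82 CPM in the treated libraries. In both, the untreated libraries were more than 3 times the highest treated one. Mmp15, a membrane-type metalloproteinase, fell by 1.84 ± 0.15 (SE) on the log2 scale, and Adamts6, a secreted protease, went the other way by 2.53 ± 0.19. Col4a1 and Col4a2, the collagen chains of basement membrane, fell from 42.5 to 19.7 CPM and from 35.1 to 18.9 CPM. Hspg2, the basement membrane proteoglycan perlecan, fell from 339 and 348 CPM to 137, 122 and 118 CPM, and Lama5, a laminin chain, fell from 54.8 ± 1.05 to 28.7 ± 1.81 CPM.

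Itga4, the integrin chain that binds VCAM1 and fibronectin, stood at 269 and 273 CPM in the untreated and 92.6, 93.5 and 87.4 CPM in the treated libraries. Its log2 change was -1.57 ± 0.041 (SE, adjusted p = 1.96e-15). Igsf3, an immunoglobulin protein of the cell surface, fell from 75.6 and 75.2 CPM to 20.5, 18.3 and 19.1 CPM. Tenm4, a teneurin of neural wiring, fell from 26.6 and 28.1 CPM to 6.55, 7.16 and 6.07 CPM. None of these overlapped between groups. L1cam and Ncam1, neural adhesion molecules, fell by 0.82 ± 0.083 and 0.73 ± 0.051 (SE) on the log2 scale, while Cadm1 rose by 0.66 ± 0.031. Over the whole list of immunoglobulin superfamily adhesion genes, 7 of 26 rose and 7 fell (26.9% each, against 24.5% and 19.7% of all tested genes). Of 25 genes in the cadherin list, 4 rose (16%) and 6 fell (24%). That list also holds Igsf3, counted among the 6, and Igsf8, counted among the 4, which are not cadherins. Of 34 axon guidance genes, 14 fell (41.2%) and 9 rose (26.5%). Plxnc1, a semaphorin receptor of melanocytes, rose from 78.8 and 73.9 CPM to 195, 199 and 194 CPM. Of 45 actin and contractility genes, 22 fell (48.9%) and 9 rose (20%), and of 19 tetraspanins 10 fell (52.6%) and 3 rose (15.8%). The other 9 of the 15 largest decreases were Sned1, Asb2, Prokr1, Fam81a, Clvs1, Zfp469, Ache, Dnm1 and Ppp1r16b, with log2 changes from -2.13 (Sned1) to -1.61 (Ppp1r16b).

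Growth factor receptors and the feedback arm of MAP kinase signalling fell in most called members. Of 30 receptor tyrosine kinases and ligands, 15 fell (50%) and 7 rose (23.3%), against 19.7% and 24.5% of all tested genes. Their median log2 change was -0.35. The receptor Kit, needed by melanocytes, fell from 9.39 and 9.13 CPM to 4.93, 4.22 and 4.61 CPM, and its ligand Kitl rose from 2.26 and 2.74 CPM to 12.02, 9.73 and 10.99 CPM. Csf1, the macrophage growth factor, rose from 13.01 ± 0.732 CPM (SD, n = 2) to 79.2 ± 2.24 CPM (SD, n = 3), and the receptor kinase Axl rose from 8.29 ± 1.26 to 23.0 ± 1.29 CPM. Of 27 MAPK feedback and output genes, 15 fell (55.6%) and 4 rose (14.8%). Spred2, an inhibitor of RAF activation, fell by 0.89 ± 0.063 (SE) on the log2 scale, while the ERK phosphatase Dusp6 rose by 0.88 ± 0.053. Of 40 genes of the PI3K, AKT and mTOR pathway, 14 fell (35%) and 9 rose (22.5%). Pik3ip1 and Deptor, inhibitors of PI3K and of mTOR, rose from 8.65 to 41.4 CPM and from 98.5 to 197 CPM.

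In developmental pathways single members rose sharply. Notch1, the receptor, rose from 6.79 and 7.17 CPM to 30.3, 28.9 and 28.3 CPM, and Maml2, a coactivator of Notch, from 8.23 and 8.68 CPM to 37.7, 38.5 and 35.5 CPM. Of 19 Notch genes, 5 rose (26.3%) and 8 fell (42.1%), against 24.5% and 19.7% of all tested genes. In the Wnt list 7 of 32 rose (21.9%) and 10 fell (31.25%). The shares that rose in both lists were thus close to that of all tested genes. Without untreated library 2, 6 of the Wnt list fell. Tcf7, a transcription factor of the pathway, rose from 5.73 ± 0.256 to 27.7 ± 0.856 CPM. Axin2, a feedback inhibitor, rose from 19.4 ± 1.77 to 43.9 ± 2.59 CPM, and Dkk3 from 56.1 ± 2.15 to 154 ± 2.13 CPM. Among chromatin genes, the DNA methyltransferase Dnmt3a fell from 145 and 151 CPM to 76.3, 80.4 and 74.8 CPM, Tet3, which oxidises methylcytosine, fell by 0.68 ± 0.040 (SE) on the log2 scale, and the acetyltransferase Kat2b rose by 1.12 ± 0.034. Of 50 genes of DNA and histone methylation, 13 rose and 16 fell (26% and 32%, against 24.5% and 19.7% of all tested genes), and without TMM factors 9 rose and 20 fell.

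The largest losses in reads came from a set of transcripts that share sequence. Gm47652, an unconfirmed entry, stood at 8769.6 and 8915 CPM in the untreated and 3040.3, 2978 and 2903 CPM in the treated libraries. Noct, which encodes nocturnin, an enzyme of daily rhythms, stood at 6247 and 6337 CPM in the untreated and 2932, 2906 and 2953 CPM in the treated libraries. Gm42860, another unconfirmed entry, stood at 5871 and 5943 CPM in the untreated and 2423, 2376 and 2345 CPM in the treated libraries. The untreated libraries were more than 2 times the treated ones in all 3. There were 37 genes that fell at least 2-fold from at least 100 CPM, 26 of them with a transcript in GENCODE M21. These transcripts were broken into 31-mers, a step chosen after seeing the data, and 6699 31-mers occurred in 2 or more of the genes. The pair of Noct and Gm42860 shared 2715 of them, Noct and Slc38a6 2452, and Nopchap1 and Gm42860 1647. With at least 100 such 31-mers, 12 of the 26 form the set, including Noct, Nopchap1, Slc38a6 and 9 entries with Gm names. Their log2 changes ran from -1.86 to -1.10. They took 3.44% to 3.48% of the reads of the untreated libraries and 1.30% to 1.33% of the treated. The set was drawn from genes that fell at least 2-fold, so the direction of both results follows from the choice and carries no test.

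Reads from such shared sequence cannot be assigned to 1 gene with certainty, so no direction is claimed for Noct, Nopchap1 or Slc38a6 as genes. The same 31-mers were then looked up in the other tested genes, which had no part in choosing them. At least 100 were in 36 further genes, of which 21 were called lower and 4 higher, with a median log2 change of -0.50 (19.7% of all tested genes were lower, with a median of 0.01). With at least 50 the counts were 25 lower and 5 higher of 50, and with at least 200 they were 13 lower and 2 higher of 20. Named examples were Sirt5 (28.0 to 16.4 CPM), the class I gene H2-T15 (54.7 to 21.7 CPM) and Or6c208 (18.3 to 7.01 CPM). Me3, Stx18, Abhd2 and Gm48161 were the 4 that rose. Of the abundant genes that fell, Hspg2 held 0 of the shared 31-mers and Itga4 held 6.

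**Figure D5:**
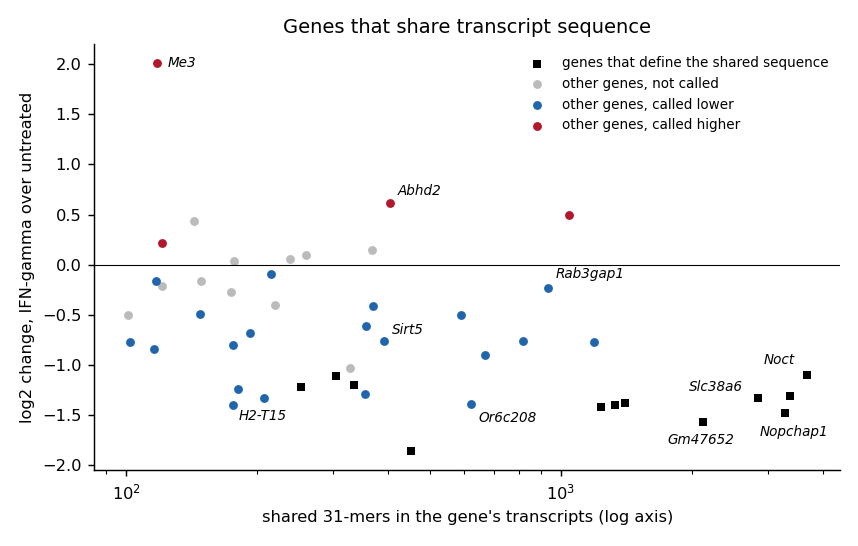
Log2 change with IFN-γ (vertical axis) against the number of shared 31-mers in a gene's GENCODE M21 transcripts (horizontal log axis), for genes with at least 100 of them and reads in both groups. Black squares are the 12 genes that define the sequence, all at -1.10 or below because they were drawn from genes that fell at least 2-fold. Coloured circles are genes that had no part in it, of which blue ones were called lower and red ones higher.

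The response also moved a share of all reads. The 765 genes at least 2-fold higher took 0.768% to 0.771% of the reads in the untreated libraries and 6.62% to 6.68% in the treated. The 344 at least 2-fold lower took 4.51% to 4.54% untreated and 1.69% to 1.73% treated. The groups are apart in both quantities, which follow from how the genes were chosen and carry no test. The largest single gains were those of the GTPase genes Gbp2 and Tgtp1. Gbp2 went from 2.65 and 2.24 CPM to 2988, 2879.9 and 2992 CPM. Tgtp1 went from no reads to 2503 ± 28.4 CPM, and its reads may be split with its near-copy Tgtp2. The mitochondrially encoded genes took 2.98% to 3.03% of reads untreated and 2.88% to 2.94% treated (exact two-sided permutation p = 0.2).

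The OVA line was given the same IFN-γ, and the difference of the responses was tested gene by gene. It was called for 53 of 15526 genes (0.341%), 41 (0.264%) with a lower and 12 (0.0773%) with a higher response in OVA. Among the 294 genes that the naming rule picks, 5 were called. Notch1 rose by 2.06 in the parental line and by 1.16 in OVA on the log2 scale, a difference (OVA minus parental) of -0.90 ± 0.128 (SE, adjusted p = 0.0029). Thbs1 rose by 4.43 and 3.56, a difference of -0.87 ± 0.127 (adjusted p = 0.00338). Both genes thus rose more in parental cells. For the other 289 named genes the difference did not pass the test, which does not show that the lines responded alike.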

How the data were processed

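The authors deposited 1 table of raw counts, with 77175 Ensembl genes and 10 libraries, and 39963 of the genes have no reads at all. Alignment with HISAT2 2.0.5 and counting with featureCounts 1.6.0 on GRCm39 are listed, per the submitters' processing notes. For strand, multi-mapped reads and annotation release nothing is given in the sources used here, so paralogs, pseudogenes and overlapping genes are uncertain. The extraction text speaks of tissue, and the other labels of cell lines.

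The test of these counts was that of edgeR 4.0.16, run under R 4.3.3 (TMM factors, filterByExpr on group, quasi-likelihood F test, two-sided, Benjamini-Hochberg adjustment over 15526 genes, threshold 0.05). All 10 libraries were fitted as 4 group means. Levels are CPM with TMM factors. SE of a log2 change is its size over the square root of F. The fit was tested on simulated data, with 50 genes changed at each of 4 sizes. It recovered 42% of 1.25-fold, 70% of 1.5-fold, 72% of 2-fold and 94% of 4-fold changes. There were 10 false calls over 15133 genes. Far fewer genes were changed in the simulation than were called in the data.

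The members and lists were chosen with earlier results of these data known: 43 lists by symbol and 20 families by symbol pattern. Symbols that the table lacks were not counted. The shares of all tested genes include genes under 10 CPM untreated, which were called less often than more abundant ones. At 100 CPM or more 27.1% rose and 39.3% fell. Shares of lists were not adjusted for level. Named genes were 6 fixed genes (1 is not reported here), the 15 largest increases and decreases outside the usual interferon families (at least 5 CPM, no overlap, over 3 reads in the lower group), the 10 highest from at most 3 untreated reads, the 10 largest gains and losses in CPM, up to 4 called members per list, and the 10 largest changes each way at 100 CPM or more. The text gives a part of them.

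Promoters come from RefSeq, GRCm38.p6. The 8 motifs were searched on both strands. Transcripts for 31-mers and gene types come from GENCODE M21, a build other than the authors', matched by gene ID. Alternatives were DESeq2 1.42.0 (Wald test, size factors), limma-voom (limma 3.58.1), no TMM, 2 other filters, the parental libraries alone, a replicate block, an adjusted p under 0.01 and each library left out. Intervals and floors cover counting error only.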

Additional observations from a re-analysis of the deposited data

Results flagged for a closer look

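The response of 5 named genes differed between the lines by the test of the difference itself (edgeR, Benjamini-Hochberg adjustment over 15526 genes). Notch1 and Thbs1 rose less in B16-F10-OVA than in parental cells, with differences (OVA minus parental, log2) of -0.90 and -0.87. Irgm1, an immunity-related GTPase, rose by 7.56 in parental cells and 7.11 in OVA, a difference of -0.44 ± 0.081 (SE, adjusted p = 0.0231). Txnip, an inhibitor of thioredoxin and of glucose uptake, rose by 0.84 in parental cells and 1.09 in OVA, a difference of 0.26 ± 0.049 (adjusted p = 0.0274). Eno1, the glycolytic enolase, fell in both lines, with log2 changes of -0.44 and -0.67 and a difference of -0.22 ± 0.038 (adjusted p = 0.014). In all 5 the direction was the same in both lines. The parental call of each was lost in 0 of the alternative settings.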

How the results depend on the processing

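Over the 21 alternative settings the number of genes called higher ran from 2846 to 3924 and the number lower from 2247 to 3448, each within 1.5 times the main counts of 3803 and 3055. DESeq2's Wald test gave 2860 and 2482. Leaving out 1 library at a time gave 3014 to 3800 higher and 2305 to 3256 lower, and at least 2-fold 731 to 784 higher and 283 to 366 lower. At least 2-fold decreases numbered 211 rather than 344 under the filter of 1 CPM in 5 libraries, which tests fewer genes, and 200 among protein-coding genes only, an alternative chosen after seeing the data. Without the genes that share sequence, also chosen after seeing the data, 3796 genes were higher and 3020 lower. Without TMM factors 48.9% of the calls were increases against 55.5% with them. With a replicate block 3697 genes were higher and 2978 lower, and 760 and 333 at least 2-fold. The labels do not say whether replicate numbers pair samples. Deviations of same-numbered parental libraries from their group means correlated at 0.014 and 0.015. With 2 untreated libraries these deviations mirror each other, so the correlations cannot decide whether samples are paired. Of the 294 named genes, 284 kept their call in every alternative that tested them. The other 10 were Afmid, Bmal2, Cd59a, Cyp4f13, Kyat3, Maml3 and the RNA hosts Snhg6, Snhg12, Snhg15 and Snhg16, and none reversed. Among lists named here, members called lower ranged from 2 to 10 for Usp genes, 2 to 5 for trafficking, 4 to 8 for mitochondrial ribosomal proteins, 6 to 12 for translation factors and 3 to 6 for lysosomal membrane proteins. Members called higher ranged from 72 to 118 for Zfp genes, 30 to 49 for solute carriers and 3 to 5 for NAD genes. The cause of these shifts was not tested. The ISRE core was in 5.94% and the GAS in 7.75% of windows over all called higher genes, in place of those at least 2-fold higher. With 2 untreated libraries, small changes and genes under 1 CPM are the least certain.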

Other observations

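Several gene families had calls in both directions that the results above do not cover. Of 31 tested kinesins, motors of the microtubules, 13 fell (41.9%) and 4 rose (12.9%), against 19.7% and 24.5% of all tested genes. Kif26a fell from 16.6 and 16.8 CPM to 6.55, 6.80 and 6.597 CPM, and the mitotic motor Kif15 fell by 0.27 ± 0.043 (SE) on the log2 scale. Of 21 nucleoporins, 9 fell (42.9%) and 4 rose (19.0%). Nup210, a membrane protein of the nuclear pore, fell from 341 and 344 CPM to 236, 223 and 212 CPM. Without untreated library 1, 1 nucleoporin rose, and without treated library 3, 2 rose. Of 38 glycosyltransferases, 17 fell (44.7%) and 9 rose (23.7%, close to the share of all tested genes). St6galnac3, a sialyltransferase, fell from 19.4 and 19.9 CPM to 6.28, 6.23 and 7.28 CPM, and St3gal6, another, rose from 147 and 148 CPM to 225, 237 and 230.2 CPM. Of 24 genes of growth arrest and senescence, 10 rose (41.7%) and 6 fell (25%). Gadd45b, a stress-induced growth arrest protein, rose from 2.71 and 2.74 CPM to 9.69, 10.6 and 11.2 CPM, and Igfbp4, a binding protein of insulin-like growth factors, fell from 180.5 and 176 CPM to 80.7, 80.2 and 86.0 CPM.

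Among 22 tested potassium channel genes, 7 rose (31.8%) and 2 fell (9.09%), against 24.5% and 19.7% of all tested genes. Under the stricter filter 3 rose. Among 60 heat shock and DnaJ chaperones, 24 rose (40%) and 15 fell (25%), and 14 rose without untreated library 2. Hspa1b, an inducible chaperone, rose from 9.61 and 9.30 CPM to 12.6, 13.4 and 14.0 CPM. Of 15 small nucleolar RNA hosts, 4 rose (26.7%, close to the share of all tested genes) and 0 fell in edgeR's test. By DESeq2 or without treated library 2, 1 was higher, and 2 were higher without treated library 3 or untreated library 1. The treated and untreated libraries of Snhg15 overlapped, although it was called.

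All reads were lost in the treated parental libraries for 7 of the genes called lower. Gm43590, which holds 326 of the shared 31-mers, had 766 and 411 reads in the untreated parental libraries and 0 in the other 8 libraries of the series, the untreated OVA libraries included. Gpr137b-ps, a pseudogene, had 58 and 0 reads in the untreated parental libraries, 116 and 129 in the untreated OVA libraries and 0 in all treated ones. H2ac19, a histone gene, had 8 and 12 reads in the untreated parental libraries and 0 in the treated, but 26 to 28 in the treated OVA libraries. Gm37676 and ENSMUSG00000123031, which has no symbol, had reads in only 1 of the 2 untreated parental libraries, as did Gm1972, and Pwwp4a had 11 and 10. The calls on Gpr137b-ps, Gm37676, ENSMUSG00000123031 and Gm1972 thus rest on reads in 1 of the 2 untreated parental libraries. Gm43590, H2ac19 and Pwwp4a had reads in both.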
